A study of Mus musculus and Homo sapiens with 176 samples.

Results

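The subject is the difference in nuclear RNA between cerebellum and prefrontal cortex of the mouse that was found alike in nuclei sorted as NeuN+ and in nuclei sorted as NeuN-. NeuN is the protein of Rbfox3, a splicing factor carried by most neurons, so the NeuN+ gate is meant to collect neuronal nuclei and the NeuN- gate glial and other nuclei. Of the 176 samples of the series, the 8 RNA sequencing libraries were used: 2 of cerebellum NeuN+, 2 of cerebellum NeuN-, 2 of prefrontal cortex NeuN+ and 2 of prefrontal cortex NeuN-. All 8 came from 1 C57BL/6 mouse (M3) of 8 to 10 weeks, with no treatment named. The p-values therefore cover no spread between mice. They rest on these libraries alone, whose spread within a group may be technical. The labels describe the preparation of cerebellar nuclei; the dissection of prefrontal cortex is not described in the sources used here.

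The 4 cerebellar libraries were set against the 4 prefrontal ones on log2(FPKM + 1), with the gate as a block. FPKM are fragment counts divided by transcript length and by the number of mapped fragments, and all levels below are FPKM scaled between libraries. Of 24854 features in the tables, 14367 reached 1 FPKM in at least 2 libraries with a quantification status of OK. A regional change is called shared where limma's adjusted p in this fit was under 0.05 and, within each gate, both cerebellar libraries lay on the same side of both prefrontal libraries. By construction, the regions of a shared gene do not overlap in either gate. In this fit a regional change that differs in size between the gates enters the residual. Its adjusted p, also with a library left out, thus reflects disagreement between the gates as well as spread between libraries. Log2 changes are cerebellum over prefrontal cortex, ± SE. Those given for 1 gate, with their SE, come from a separate fit with 1 mean per group.

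The cerebellum arises from the embryonic hindbrain and the cerebral cortex from the forebrain, and their cells keep different sets of homeodomain and other patterning factors into adult life. In the cerebellum, very numerous small granule cells excite Purkinje cells, the only output neurons of the cerebellar cortex, and Bergmann glia are the astrocytes that surround the Purkinje dendrites. Prefrontal cortex holds glutamatergic projection neurons in layers and several classes of GABA interneurons, many of which make a neuropeptide. Purkinje cells are known to stain weakly or not at all for NeuN.

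The fit called 4020 features higher in cerebellum (28% of those tested) and 4215 lower (29.3%). Shared changes were 3904 higher (27.2%) and 4073 lower (28.3%), and 258 called features were not shared. The balance of directions depended on the scaling: shared features were 4700 higher and 3314 lower with a common sum of FPKM, 4445 and 3652 with quantile normalization, and 3409 and 4432 with FPKM as deposited. At least 2-fold in each gate were 701 shared features higher in cerebellum (4.88%) and 1159 lower (8.07%). The largest adjusted p of a shared feature was 0.0499; 381 further features had the same non-overlapping order in both gates but were not called, from an adjusted p of 0.05003 upward. In 3058 features the regions separated in both gates but in opposite directions, and in 2951 the regions overlapped in at least 1 gate. Across the 14367 features, the change in NeuN+ and the change in NeuN- had a Pearson correlation of 0.48, given as a description; the gates share no library, but they share the mouse.

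**Figure D1:**
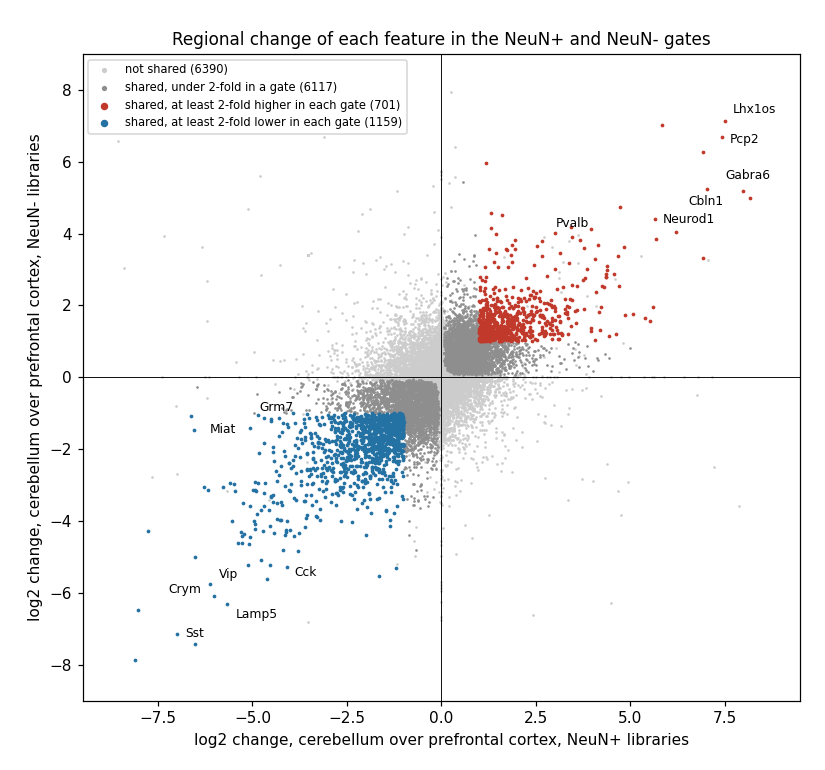
Log2 change of each tested feature, cerebellum over prefrontal cortex, in NeuN+ libraries (horizontal axis) and in NeuN- libraries (vertical axis). Red points are the 701 and blue points the 1159 features with a shared change of at least 2-fold in each gate, and grey points are the rest; microRNA, small nucleolar RNA and predicted features are plotted but not named.

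Shared changes have 1 direction by the rule that chose them, but their size was often not independent of the gate. The regional change differed in size between the gates for 5036 of the 7977 shared features (63.1%; limma test of the difference, adjusted p under 0.05), against 70.1% of all tested features. Of those 5036, 2527 changed more in NeuN+ and 2509 more in NeuN-. The changes in the gates lay within 0.5 of each other on the log2 scale in 52.2% of the shared features.

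Absolute depth is unknown, since FPKM hold no counts; the steps of low values gave relative depths of 1 to 1.51 between libraries, with 49.97% to 53.4% of the implied fragment numbers within 0.05 of a whole number. Spearman correlations over the tested features were 0.972 to 0.977 between libraries of 1 group and 0.680 to 0.808 between groups.

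The gates set neuronal gene lists apart unevenly, and not in 1 direction. Rbfox3 itself stood at 128 and 123 scaled FPKM in cerebellar NeuN+ libraries, against 16.9 and 16.4 in prefrontal NeuN+. In NeuN-, Rbfox3 stood at 34.7 and 35.6 in cerebellar libraries, against 12.5 and 11.1 in prefrontal ones. It was higher in cerebellum in both gates, with a log2 change of 2.84 ± 0.06 in NeuN+ and 1.5 ± 0.06 in NeuN- (limma adjusted p = 0.0005). The summed level of 19 pan-neuronal genes was 1874 and 1880.0 in cerebellar NeuN+ libraries, against 2080.0 and 2053 in prefrontal NeuN+, and 1001 and 1010.0 in NeuN- from cerebellum, against 2461 and 2591 in NeuN- from prefrontal cortex. The sum was thus higher in prefrontal NeuN- than in prefrontal NeuN+ libraries, while in cerebellum it was lower in NeuN-. Of the 19 genes, 4 were higher in cerebellum in both gates (21.05%, against 27.2% of all features) and 7 lower (36.8%, against 28.3%). The lists of cortical projection neurons, cortical interneurons and neuropeptides were also higher in prefrontal NeuN- than in prefrontal NeuN+. For cortical interneurons the sum was 1711 and 1580 in prefrontal NeuN-, against 1376 and 1275 in prefrontal NeuN+. The glutamate receptor and voltage-gated channel lists were lower in prefrontal NeuN- than in prefrontal NeuN+. The sum of 23 glutamate receptor genes was 388 and 387 in cerebellar NeuN+ libraries, against 721 and 721 in prefrontal NeuN+, and 407 and 407 in NeuN- from cerebellum, against 269.5 and 278 in NeuN- from prefrontal cortex. For 28 voltage-gated channel genes it was 405 and 409 in cerebellar NeuN+ libraries, against 298 and 294 in prefrontal NeuN+, and 176 and 178 in NeuN- from cerebellum, against 108.2 and 109 in NeuN- from prefrontal cortex. Every shared change of a neuronal gene below stands beside these values; their part in it was not tested. In bulk nuclei, fewer cells of a type and less RNA per cell cannot be told apart.

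The 12 genes with the largest shared increases in cerebellum, ranked by the smaller of the changes in the gates, were led by granule and Purkinje cell genes. Lhx1os, a noncoding RNA transcribed from the strand opposite Lhx1 (chr11:84339162-84349333, mm9), stood at 188 and 176 scaled FPKM in cerebellar NeuN+ libraries, against 0 and 0 in prefrontal NeuN+. In NeuN-, Lhx1os stood at 158 and 150.2 in cerebellar libraries, against 0 and 0.226 in prefrontal ones. All 4 cerebellar libraries were above 100 and all 4 prefrontal libraries under 1 (limma adjusted p = 5.2e-07). Pcp2, a regulator of G-protein signalling named for Purkinje cells (chr8:3623371-3625545), stood at 415 and 410.0 scaled FPKM in cerebellar NeuN+ libraries, against 1.42 and 1.38 in prefrontal NeuN+. In NeuN-, Pcp2 stood at 372 and 403 in cerebellar libraries, against 2.04 and 3.70 in prefrontal ones. Its log2 change was 7.43 ± 0.18 in NeuN+ and 6.68 ± 0.18 in NeuN- (limma adjusted p = 2.1e-06), and cerebellar NeuN- libraries held nearly as much of it as cerebellar NeuN+ libraries. Pcp2 overlaps Pet100 in the tables, and fragments of the pair cannot be assigned with certainty.

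Granule cell genes followed the same regional order but were lower in the cerebellar NeuN- libraries. Gabra6, the GABA-A receptor subunit of granule cells (chr11:42119939-42134574), stood at 251 and 257 scaled FPKM in cerebellar NeuN+ libraries, against 0 and 0 in prefrontal NeuN+. In NeuN-, Gabra6 stood at 49.0 and 48.7 in cerebellar libraries, against 0.205 and 0.551 in prefrontal ones (limma adjusted p = 8.9e-05). Gabra6 was listed at 0 in prefrontal NeuN+, and in NeuN- its log2 change was 5.19 ± 0.11. Cbln1, a synapse organizer released by granule cells (chr8:89992752-89996491), stood at 170.4 and 165 scaled FPKM in cerebellar NeuN+ libraries, against 0.326 and 0.246 in prefrontal NeuN+. In NeuN-, Cbln1 stood at 67.3 and 66.1 in cerebellar libraries, against 0.541 and 1.05 in prefrontal ones. Cbln1 had a log2 change of 7.03 ± 0.13 in NeuN+ and 5.25 ± 0.13 in NeuN- (limma adjusted p = 2.3e-05). Its partner Cbln3 had a log2 change of 5.68 ± 0.06 in NeuN+ and 3.86 ± 0.06 in NeuN-. Neurod1, a helix-loop-helix factor of granule cells, stood at 132 and 130.5 scaled FPKM in cerebellar NeuN+ libraries, against 1.75 and 1.54 in prefrontal NeuN+. In NeuN-, Neurod1 stood at 50.2 and 53.2 in cerebellar libraries, against 1.30 and 1.65 in prefrontal ones. Neurod1 had a log2 change of 5.65 ± 0.08 in NeuN+ and 4.41 ± 0.08 in NeuN- (limma adjusted p = 1.3e-05). All 4 RNAs were lower in cerebellar NeuN- than in cerebellar NeuN+ libraries, and still far above every prefrontal library.

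**Figure D2:**
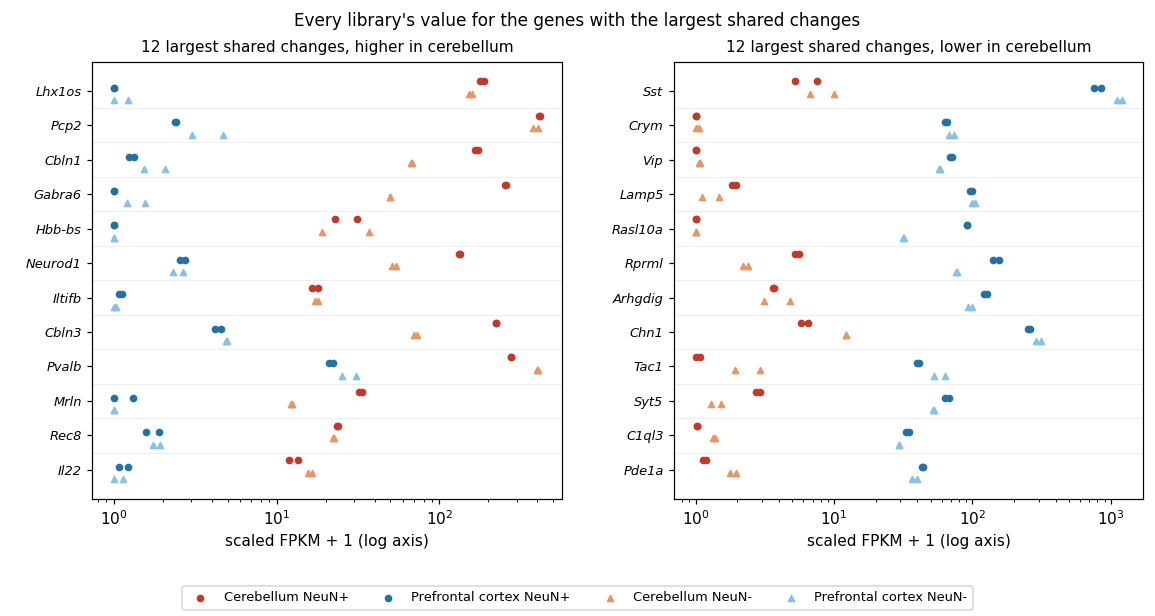
Scaled FPKM + 1 (log axis) in each of the 8 libraries for the 12 genes with the largest shared increases in cerebellum (left) and the 12 with the largest decreases (right). Red and orange points are cerebellar and dark and light blue points prefrontal libraries; circles are NeuN+ and triangles NeuN-. In every row the cerebellar points lie on one side of the prefrontal points.

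Among the 12, the calcium buffer gene Pvalb stood at 273 and 276 scaled FPKM in cerebellar NeuN+ libraries, against 20.1 and 21.1 in prefrontal NeuN+. In NeuN-, Pvalb stood at 395 and 402 in cerebellar libraries, against 29.9 and 24.4 in prefrontal ones. Its log2 change was 3.67 ± 0.09 in NeuN+ and 3.83 ± 0.09 in NeuN- (limma adjusted p = 1.4e-06). The remaining genes are not among the markers listed for cerebellar cells. Rec8, a cohesin subunit of meiosis, stood at 22.4 and 22.8 scaled FPKM in cerebellar NeuN+ libraries, against 0.583 and 0.891 in prefrontal NeuN+. In NeuN-, Rec8 stood at 21.5 and 21.2 in cerebellar libraries, against 0.737 and 0.929 in prefrontal ones (log2 change of 3.77 ± 0.10 in NeuN+ and 3.61 ± 0.10 in NeuN-). Mrln, which encodes a small inhibitor of the calcium pump of muscle, stood at 31.1 and 32.4 scaled FPKM in cerebellar NeuN+ libraries, against 0 and 0.307 in prefrontal NeuN+. In NeuN-, Mrln stood at 11.2 and 11.4 in cerebellar libraries, against 0 and 0 in prefrontal ones. Both were thus almost absent from the prefrontal libraries. Il22, the gene of a cytokine of lymphocytes, stood at 10.8 and 12.6 scaled FPKM in cerebellar NeuN+ libraries, against 0.218 and 0.0848 in prefrontal NeuN+. In NeuN-, Il22 stood at 15.5 and 14.6 in cerebellar libraries, against 0 and 0.135 in prefrontal ones. Its close copy Iltifb, a neighbour on chromosome 10, stood at 15.6 and 16.9 scaled FPKM in cerebellar NeuN+ libraries, against 0.128 and 0.0827 in prefrontal NeuN+. In NeuN-, Iltifb stood at 17.1 and 16.3 in cerebellar libraries, against 0 and 0.0263 in prefrontal ones. The pair is nearly identical in sequence, and fragments cannot be assigned to either with certainty. The globin gene Hbb-bs, at 21.8 and 30.0 scaled FPKM in cerebellar NeuN+ against 0.00355 and 0.00587 in prefrontal NeuN+ libraries, and 36.0 and 18.04 in NeuN- from cerebellum against 0.00242 and 0.00320 in NeuN- from prefrontal cortex, is uncertain too. It overlaps its near copy Hbb-b1, which stood at 148 and 153 scaled FPKM in cerebellar NeuN+ against 45.0 and 45.0 in prefrontal NeuN+ libraries, and 111 and 134 in NeuN- from cerebellum against 133 and 122 in NeuN- from prefrontal cortex and did not pass (limma adjusted p = 0.077).

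The 12 genes with the largest shared decreases included 3 neuropeptide genes. Sst, the gene of the interneuron peptide somatostatin (chr16:23889667-23890930), stood at 6.54 and 4.26 scaled FPKM in cerebellar NeuN+ libraries, against 843 and 757 in prefrontal NeuN+. In NeuN-, Sst stood at 5.74 and 9.05 in cerebellar libraries, against 1204 and 1109 in prefrontal ones. It fell by 6.99 ± 0.23 in NeuN+ and 7.13 ± 0.23 in NeuN- on the log2 scale (limma adjusted p = 1.4e-06), and the difference between the gates, 0.15 ± 0.32, did not pass (adjusted p = 0.70). Vip, the gene of vasoactive intestinal peptide (chr10:4698927-4707323), stood at 0 and 0 scaled FPKM in cerebellar NeuN+ libraries, against 67.6 and 70.1 in prefrontal NeuN+. In NeuN-, Vip stood at 0.0506 and 0.0823 in cerebellar libraries, against 55.9 and 56.9 in prefrontal ones. Its NeuN- log2 change was -5.75 ± 0.06 (limma adjusted p = 5.7e-07). Tac1, the precursor of substance P (chr6:7505071-7512973), stood at 0.0744 and 0 scaled FPKM in cerebellar NeuN+ libraries, against 38.6 and 40.0 in prefrontal NeuN+. In NeuN-, Tac1 stood at 1.93 and 0.917 in cerebellar libraries, against 51.7 and 62.1 in prefrontal ones. Tac1 had a log2 change of -5.28 ± 0.19 in NeuN+ and -4.60 ± 0.19 in NeuN- (limma adjusted p = 5.9e-06). In prefrontal cortex, Sst and Tac1 were higher in NeuN- than in NeuN+ libraries, and Vip was lower.

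Crym, which encodes a thyroid hormone binding protein (chr7:127329898-127345502), stood at 0 and 0 scaled FPKM in cerebellar NeuN+ libraries, against 62.1 and 64.5 in prefrontal NeuN+. In NeuN-, Crym stood at 0.0636 and 0 in cerebellar libraries, against 72.2 and 66.6 in prefrontal ones (limma adjusted p = 2.1e-07). It was at or near 0 in every cerebellar library. Lamp5, a membrane protein gene of cortical neurons (chr2:135883663-135895653), had a log2 change of -5.68 ± 0.12 in NeuN+ and -6.32 ± 0.12 in NeuN-, with 0.115 and 0.467 in cerebellar NeuN- against 98.8 and 104 in prefrontal NeuN- libraries. Chn1, which encodes a Rac inhibitor, stood at 4.82 and 5.499 scaled FPKM in cerebellar NeuN+ libraries, against 251 and 259 in prefrontal NeuN+. In NeuN-, Chn1 stood at 11.1 and 11.3 in cerebellar libraries, against 288 and 312 in prefrontal ones (log2 change of -5.38 ± 0.07 in NeuN+ and -4.62 ± 0.07 in NeuN-). The vesicle calcium sensor gene Syt5 had a log2 change of -4.54 ± 0.09 in NeuN+ and -5.21 ± 0.09 in NeuN-, the secreted synaptic protein gene C1ql3 -5.06 ± 0.06 in NeuN+ and -4.44 ± 0.06 in NeuN- and the phosphodiesterase gene Pde1a -5.22 ± 0.08 in NeuN+ and -4.36 ± 0.08 in NeuN-. Rprml had -4.78 ± 0.07 in NeuN+ and -5.08 ± 0.07 in NeuN- and the GTPase regulator gene Arhgdig -5.09 ± 0.18 in NeuN+ and -4.64 ± 0.18 in NeuN-. Rasl10a, a Ras-like gene, was listed at 0 in all 4 cerebellar libraries, against 90.3 and 91.03 in prefrontal NeuN+ and 30.8 and 30.8 in prefrontal NeuN-. Chn1, C1ql3 and Rasl10a overlap other features in the tables.

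Promoter windows from RefSeq (GRCm38.p6), 250 bases before to 50 after the annotated start, are shown for a few of these genes. Lhx1 and Lhx1os start head to head, and their windows share 225 bases (chr11:84525485-84525784, minus strand for Lhx1). The peptide genes Sst (chr16:23890795-23891094, minus strand), Vip (chr10:5638968-5639267, plus strand), Tac1 (chr6:7554811-7555110, plus strand) and Cck (chr9:121495645-121495944, minus strand) are shown because the cyclic AMP response element was first described in the somatostatin promoter. Capitals mark the element's half-site TGACG on either strand.
Lhx1: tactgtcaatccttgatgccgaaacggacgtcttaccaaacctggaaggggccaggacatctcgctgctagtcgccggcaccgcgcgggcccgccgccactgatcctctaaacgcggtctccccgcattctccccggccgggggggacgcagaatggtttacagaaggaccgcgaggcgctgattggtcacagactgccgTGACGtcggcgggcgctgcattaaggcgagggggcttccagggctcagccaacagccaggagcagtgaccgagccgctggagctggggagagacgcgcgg
Sst: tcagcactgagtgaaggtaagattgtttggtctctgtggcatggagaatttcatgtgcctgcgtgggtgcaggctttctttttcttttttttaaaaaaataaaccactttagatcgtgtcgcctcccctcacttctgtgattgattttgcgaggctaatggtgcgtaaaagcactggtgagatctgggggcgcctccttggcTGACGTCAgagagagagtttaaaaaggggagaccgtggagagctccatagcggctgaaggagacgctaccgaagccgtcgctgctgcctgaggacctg
Vip: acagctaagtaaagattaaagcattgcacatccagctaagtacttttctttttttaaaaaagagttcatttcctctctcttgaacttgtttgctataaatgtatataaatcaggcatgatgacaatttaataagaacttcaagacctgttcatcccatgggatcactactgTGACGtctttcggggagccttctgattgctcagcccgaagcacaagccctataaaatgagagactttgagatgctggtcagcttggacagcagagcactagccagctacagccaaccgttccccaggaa
Tac1: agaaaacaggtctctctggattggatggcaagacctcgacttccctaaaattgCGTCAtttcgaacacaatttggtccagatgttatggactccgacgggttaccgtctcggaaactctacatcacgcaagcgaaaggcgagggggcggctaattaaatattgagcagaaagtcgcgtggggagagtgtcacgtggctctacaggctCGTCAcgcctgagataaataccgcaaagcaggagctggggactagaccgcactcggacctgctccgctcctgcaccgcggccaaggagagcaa
Cck: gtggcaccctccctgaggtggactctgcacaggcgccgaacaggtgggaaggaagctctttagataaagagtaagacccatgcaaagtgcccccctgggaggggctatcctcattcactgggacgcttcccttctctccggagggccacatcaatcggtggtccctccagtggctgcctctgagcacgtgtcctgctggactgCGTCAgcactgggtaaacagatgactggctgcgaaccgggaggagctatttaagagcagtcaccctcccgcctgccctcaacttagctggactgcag

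The whole element TGACGTCA lay 48 bases before the start of Sst, where its half-sites on opposite strands overlap. A single half-site lay 79 bases before the start of Vip, 47 before that of Cck and 50 before that of Lhx1, and Tac1 had 2 of them, 197 and 43 bases before its start. These are letter matches, not sites. Windows were found for 10573 of 14256 tested symbols, and with 1 window a symbol, TGACG on either strand was in 25.1% of 499 genes with a shared change of at least 2-fold higher in cerebellum, 32% of 855 such genes lower and 30.9% of all. TGACGTCA was in 1.6%, 4.09% and 3.32% of these 3 sets, and AGGTCA, the core bound by nuclear receptors of the ROR family, in 15%, 10.9% and 12.5%. The TATA box letters TATAAA were in 5.61%, 10.1% and 7.41%. Fewer than 5 CG dinucleotides were in 17.4% of the windows of genes higher in cerebellum, 9.94% of those lower and 10.6% of all.

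Of 622 pairs of tested genes on opposite strands with overlapping windows, 26 had a member at least 2-fold higher in both gates. Lhx1 with Lhx1os was the 1 pair in which both members were. For the 89 pairs with a member at least 2-fold lower, both members were lower in 4. In 1 pair the members went in opposite directions. Of all tested features, 4.88% were at least 2-fold higher and 8.07% lower. Neighbours that do not overlap shared a direction more often than all neighbours did. Of the nearest tested genes beside a gene at least 2-fold higher, 9.35% were higher themselves, against 4.88% of all neighbours. Beside a gene at least 2-fold lower, 10.9% were lower, against 8.45%. Zic1 and Zic4, which lie side by side on chromosome 9, were such neighbours, as were N4bp1, Cbln1 and Zfp423 on chromosome 8 and Clu, Ephx2, Ptk2b and Trim35 on chromosome 14.

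Listed transcription factors mostly followed the region in both gates. Of 35 factors listed for hindbrain and cerebellum, 24 could be tested; 19 were higher in cerebellum in both gates, 3 lower and 2 not shared (Etv1 and Pou3f4). Of 28 forebrain factors, 22 could be tested, of which 19 were lower and 3 higher. Of all features, 27.2% were higher and 28.3% lower. Many listed factors passed the filter through the region where they are high. In each prefrontal NeuN+ library 19 of the 24 hindbrain factors were under 1. In cerebellar NeuN+ libraries 15 and 16 of the 22 forebrain factors were. With at least 1 FPKM asked for in all 8 libraries, 1 hindbrain factor was shared and higher, 0 lower, and 3 forebrain factors were lower. The count of higher forebrain factors, 3 without that filter, stayed within 1.5 times. The lower forebrain factors thus no longer clearly outnumbered the higher ones. The median log2 changes were 1.66 in NeuN+ and 1.38 in NeuN- for the first list and -1.70 in NeuN+ and -1.16 in NeuN- for the second, against -0.03 in NeuN+ and 0.02 in NeuN- for all tested features; medians of lists include genes listed at 0 in a group, whose fitted change depends on the pseudocount.

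Lhx1, a LIM homeodomain factor of Purkinje cells (chr11:84332881-84339036), stood at 23.8 and 25.4 scaled FPKM in cerebellar NeuN+ libraries, against 0 and 0 in prefrontal NeuN+. In NeuN-, Lhx1 stood at 9.56 and 10.3 in cerebellar libraries, against 0.0168 and 0.0751 in prefrontal ones (limma adjusted p = 3.3e-05). Zic1, a zinc finger factor of granule cells, stood at 29.4 and 26.97 scaled FPKM in cerebellar NeuN+ libraries, against 0.466 and 0.347 in prefrontal NeuN+. In NeuN-, Zic1 stood at 19.3 and 18.8 in cerebellar libraries, against 1.39 and 1.27 in prefrontal ones. Zic1 had a log2 change of 4.38 ± 0.08 in NeuN+ and 3.10 ± 0.08 in NeuN- (limma adjusted p = 4.2e-05). Its neighbour Zic4 stood at 12.7 and 13.04 scaled FPKM in cerebellar NeuN+ libraries, against 0 and 0.00386 in prefrontal NeuN+. In NeuN-, Zic4 stood at 26.6 and 26.5 in cerebellar libraries, against 3.01 and 3.04 in prefrontal ones, and was higher in cerebellar NeuN- than in cerebellar NeuN+. Zic2 and Zic5 were also shared and higher in cerebellum, and stayed under 4 scaled FPKM in every library. En2, a homeodomain factor that marks the boundary of midbrain and hindbrain in the embryo, stood at 20.5 and 19.4 scaled FPKM in cerebellar NeuN+ libraries, against 0 and 0.0518 in prefrontal NeuN+. In NeuN-, En2 stood at 7.92 and 9.27 in cerebellar libraries, against 0.290 and 0.474 in prefrontal ones. En2 had a log2 change of 4.35 ± 0.10 in NeuN+ and 2.79 ± 0.10 in NeuN- (limma adjusted p = 0.00011). Meis1 had a log2 change of 2.1 ± 0.08 in NeuN+ and 1.44 ± 0.08 in NeuN-, Eomes, a T-box factor of unipolar brush cells, 1.67 ± 0.08 in NeuN+ and 1.40 ± 0.08 in NeuN- and Uncx 1.91 ± 0.14 in NeuN+ and 1.15 ± 0.14 in NeuN-. Irx2 stood at 2.38 and 2.15 in NeuN+ and 3.59 and 4.08 in NeuN- libraries of cerebellum, and was listed at 0 in all 4 prefrontal libraries.

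Some hindbrain factors had the larger change in NeuN-. Tfap2b, which marks inhibitory interneurons of the molecular layer, stood at 3.18 and 3.20 scaled FPKM in cerebellar NeuN+ libraries, against 0.163 and 0.131 in prefrontal NeuN+. In NeuN-, Tfap2b stood at 13.4 and 12.4 in cerebellar libraries, against 0.0740 and 0.0812 in prefrontal ones. Tfap2b had a log2 change of 1.87 ± 0.07 in NeuN+ and 3.69 ± 0.07 in NeuN- (limma adjusted p = 0.00064). Skor1 had a log2 change of 1.02 ± 0.13 in NeuN+ and 2.44 ± 0.13 in NeuN-. Pax3 stood at 0.491 and 0.547 scaled FPKM in cerebellar NeuN+ libraries, against 0.350 and 0.385 in prefrontal NeuN+. In NeuN-, Pax3 stood at 7.13 and 7.62 in cerebellar libraries, against 0.236 and 0.218 in prefrontal ones. The NeuN+ change of Pax3 was 0.15 ± 0.07, and it lost its call (limma adjusted p = 0.043) without any 1 of the NeuN- libraries (adjusted p of 0.11 in each case). Pax6 went the other way, at 27.04 and 25.3 scaled FPKM in cerebellar NeuN+ against 0.203 and 0.2996 in prefrontal NeuN+ libraries, and 13.8 and 13.1 in NeuN- from cerebellum against 8.44 and 9.49 in NeuN- from prefrontal cortex. The regions stood much closer in NeuN-, and its call (adjusted p = 0.026) was lost without any 1 of the NeuN+ libraries (adjusted p 0.066 to 0.067). Of the 3 listed factors that were lower, Meis2 had a log2 change of -2.08 ± 0.09 in NeuN+ and -1.38 ± 0.09 in NeuN- and Tshz3 -1.22 ± 0.08 in NeuN+ and -0.65 ± 0.08 in NeuN-. Sall3 stood under 1 in all but the prefrontal NeuN- libraries (4.71 and 4.14) and lost its call without any 1 of the NeuN- libraries (adjusted p 0.092 to 0.096) and with quantile normalization. Pax6 and Tfap2a overlap other features.

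**Figure D3:**
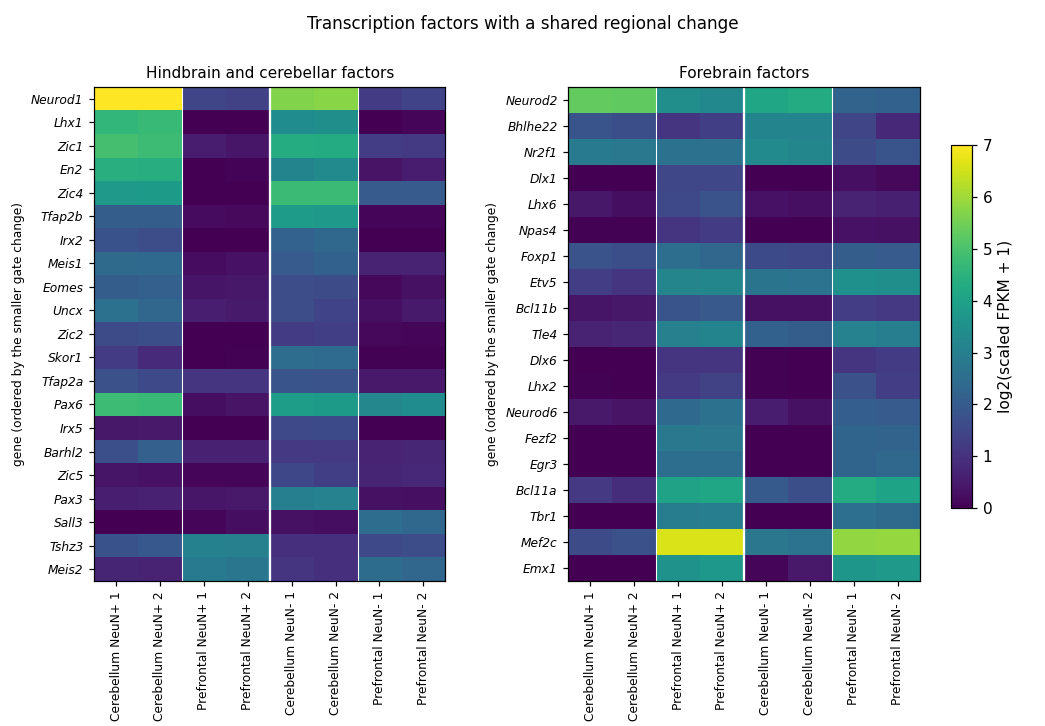
Log2(scaled FPKM + 1) of the hindbrain and cerebellar factors (left) and forebrain factors (right) with a shared change that are reported here, 1 column a library, ordered by the smaller of the changes in the gates. Cerebellar columns stand left of prefrontal columns within each gate; Neurod1 and Zic1 are bright in the 4 cerebellar columns, and Mef2c and Bcl11a in the 4 prefrontal ones.

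Among forebrain factors, Mef2c, a MADS-box factor, stood at 2.105 and 2.35 scaled FPKM in cerebellar NeuN+ libraries, against 96.1 and 96.3 in prefrontal NeuN+. In NeuN-, Mef2c stood at 5.89 and 5.33 in cerebellar libraries, against 57.3 and 58.4 in prefrontal ones. Mef2c had a log2 change of -4.91 ± 0.06 in NeuN+ and -3.15 ± 0.06 in NeuN- (limma adjusted p = 0.0001). Bcl11a, a zinc finger factor, stood at 1.23 and 0.904 scaled FPKM in cerebellar NeuN+ libraries, against 15.2 and 16.4 in prefrontal NeuN+. In NeuN-, Bcl11a stood at 2.92 and 2.19 in cerebellar libraries, against 18.9 and 15.8 in prefrontal ones. Bcl11a had a log2 change of -3.03 ± 0.14 in NeuN+ and -2.37 ± 0.14 in NeuN-. The homeodomain factor Emx1 stood at 0 and 0 scaled FPKM in cerebellar NeuN+ libraries, against 10.8 and 12.2 in prefrontal NeuN+. In NeuN-, Emx1 stood at 0.0690 and 0.393 in cerebellar libraries, against 12.1 and 12.6 in prefrontal ones (limma adjusted p = 3.8e-06). Tbr1 and Fezf2, which specify deep-layer projection neurons, were listed at 0 in all 4 cerebellar libraries. In prefrontal libraries Tbr1 stood at 6.63 and 7.004 in NeuN+ and 4.89 and 4.39 in NeuN-, and Fezf2 at 6.02 and 5.82 in NeuN+ and 3.78 and 3.66 in NeuN-. Neurod6, a helix-loop-helix factor of cortical projection neurons, had a log2 change of -2.09 ± 0.12 in NeuN+ and -1.59 ± 0.12 in NeuN-.

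Factors of forebrain interneurons were low throughout. Dlx6 stood at 0 and 0 scaled FPKM in cerebellar NeuN+ libraries, against 1.09 and 1.07 in prefrontal NeuN+. In NeuN-, Dlx6 stood at 0.0257 and 0 in cerebellar libraries, against 1.13 and 1.32 in prefrontal ones. Lhx6 had a log2 change of -1.30 ± 0.10 in NeuN+ and -0.34 ± 0.10 in NeuN-. Dlx1, which overlaps an antisense RNA, was listed at 0 in cerebellum and stood at 1.83 and 1.81 in prefrontal NeuN+ and 0.215 and 0.111 in prefrontal NeuN-. Its call (adjusted p = 0.027) was lost without any 1 of the NeuN+ libraries (adjusted p 0.071 to 0.073). The 3 listed factors that were higher in cerebellum were Neurod2, at 38.6 and 37.9 scaled FPKM in cerebellar NeuN+ against 9.95 and 8.57 in prefrontal NeuN+ libraries, and 16.5 and 18.7 in NeuN- from cerebellum against 3.73 and 3.56 in NeuN- from prefrontal cortex (log2 change of 1.94 ± 0.09 in NeuN+ and 2.00 ± 0.09 in NeuN-), Bhlhe22 (0.57 ± 0.22 in NeuN+ and 2.04 ± 0.22 in NeuN-) and Nr2f1 (0.25 ± 0.09 in NeuN+ and 1.55 ± 0.09 in NeuN-); Nr2f1 lost its call without any 1 of the NeuN- libraries (adjusted p 0.057 to 0.064). Neurod2 and Bhlhe22 are known from cortical neurons and are made in other neurons as well. Of 39 Hox genes in the tables, which pattern the hindbrain and spinal cord, Hoxd11 alone passed the filter (log2 change of 0.79 ± 0.09 in NeuN+ and 1.28 ± 0.09 in NeuN-).

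Most listed genes of granule and Purkinje cells were higher in cerebellum in both gates, against 27.2% of all features. Those of cerebellar inhibitory interneurons were not mostly higher. Asking for at least 1 FPKM in all 8 libraries left 9 granule cell genes higher, and 7 Purkinje cell genes higher and 1 lower. Of 18 tested granule cell genes, 15 were higher, 0 lower, and Grin2c, Etv1 and Pde1c were not shared; the list's median log2 change was 3.84 in NeuN+ and 1.27 in NeuN-. Its summed level was 1396 and 1402 in cerebellar NeuN+ libraries, against 118 and 122 in prefrontal NeuN+, and 429.7 and 429 in NeuN- from cerebellum, against 125 and 128 in NeuN- from prefrontal cortex. The glutamate receptor gene Grm4, of the granule cell terminal, stood at 23.6 and 24.1 scaled FPKM in cerebellar NeuN+ libraries, against 0.224 and 0.516 in prefrontal NeuN+. In NeuN-, Grm4 stood at 2.69 and 2.57 in cerebellar libraries, against 0.496 and 0.442 in prefrontal ones. Grm4 had a log2 change of 4.19 ± 0.11 in NeuN+ and 1.30 ± 0.11 in NeuN- (limma adjusted p = 0.0051). Of 16 Purkinje cell genes, 12 were higher and 2 lower, with a median of 1.51 in NeuN+ and 1.44 in NeuN-. The list's sum was as high in cerebellar NeuN- as in cerebellar NeuN+ libraries, at 2384 and 2331 in cerebellar NeuN+ libraries, against 597 and 594 in prefrontal NeuN+, and 2318 and 2405 in NeuN- from cerebellum, against 1040.0 and 926 in NeuN- from prefrontal cortex. Car8, which encodes a binding protein of the inositol trisphosphate receptor, stood at 18.9 and 17.7 scaled FPKM in cerebellar NeuN+ libraries, against 0.106 and 0.214 in prefrontal NeuN+. In NeuN-, Car8 stood at 16.5 and 15.2 in cerebellar libraries, against 0.626 and 0.818 in prefrontal ones. Car8 had a log2 change of 4.06 ± 0.09 in NeuN+ and 3.29 ± 0.09 in NeuN- (limma adjusted p = 1.1e-05).

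The 2 Purkinje genes that were lower are also made by cortical neurons. Calb1, which encodes the calcium buffer calbindin, stood at 32.4 and 31.5 scaled FPKM in cerebellar NeuN+ libraries, against 44.5 and 43.03 in prefrontal NeuN+. In NeuN-, Calb1 stood at 21.7 and 24.3 in cerebellar libraries, against 30.4 and 32.8 in prefrontal ones. Calb1 had a log2 change of -0.44 ± 0.07 in NeuN+ and -0.44 ± 0.07 in NeuN- (limma adjusted p = 0.0015). Foxp2, a forkhead factor of deep cortical layers as well, had a log2 change of -1.43 ± 0.09 in NeuN+ and -0.27 ± 0.09 in NeuN-; it lost its call without any 1 of the NeuN+ libraries (adjusted p 0.051 to 0.056) and when FPKM were brought to a common sum, which leaves 1 gene lower. Of 8 genes of cerebellar inhibitory interneurons, Prkcd, Kit and Tfap2b were higher (37.5%, against 27.2% of all features), and Grm2 and Nxph1 lower (25%, against 28.3%). Their median log2 change was -0.54 in NeuN+ and 0.62 in NeuN-. This list's sum was 15.7 and 14.7 in cerebellar NeuN+ libraries, against 52.6 and 51.2 in prefrontal NeuN+, and 75.5 and 71.9 in NeuN- from cerebellum, against 48.2 and 49.6 in NeuN- from prefrontal cortex, so in NeuN+ it was lower in cerebellum. Prkcd, a protein kinase C gene, stood at 4.07 and 4.27 scaled FPKM in cerebellar NeuN+ libraries, against 0.270 and 0.263 in prefrontal NeuN+. In NeuN-, Prkcd stood at 30.9 and 30.1 in cerebellar libraries, against 6.49 and 6.32 in prefrontal ones. Prkcd had a log2 change of 2.03 ± 0.06 in NeuN+ and 2.09 ± 0.06 in NeuN-. Nxph1, a neurexin ligand gene, had a log2 change of -3.40 ± 0.15 in NeuN+ and -2.52 ± 0.15 in NeuN-.

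Genes of cortical projection neurons were mostly lower in both gates, against 28.3% of all features. Of 19 projection neuron genes, 16 were lower, 0 higher, and Slc17a7, Nrn1 and Wfs1 were not shared. Their median log2 change was -2.63 in NeuN+ and -2.02 in NeuN-. Most passed the filter through prefrontal cortex. Under 1 scaled FPKM were 11 of the 19 in each cerebellar NeuN+ library, and 12 and 13 in cerebellar NeuN-. In prefrontal libraries 0 were in NeuN+, and 0 and 1 in NeuN-. When 1 FPKM was asked for in all 8 libraries, 3 were lower. The list's summed level was 78.8 and 75.2 in cerebellar NeuN+ libraries, against 901 and 863 in prefrontal NeuN+, and 55.5 and 58.2 in NeuN- from cerebellum, against 1054 and 1005 in NeuN- from prefrontal cortex. It was thus higher in prefrontal NeuN- than in prefrontal NeuN+ libraries. Cck, the gene of cholecystokinin (chr9:121398942-121404812, mm9), stood at 29.4 and 25.1 scaled FPKM in cerebellar NeuN+ libraries, against 491 and 460.3 in prefrontal NeuN+. In NeuN-, Cck stood at 14.7 and 17.7 in cerebellar libraries, against 691 and 639.6 in prefrontal ones. Cck had a log2 change of -4.08 ± 0.11 in NeuN+ and -5.28 ± 0.11 in NeuN- (limma adjusted p = 1.7e-05). Kcnv1, a silent potassium channel subunit gene, was at or near 0 in cerebellum, against 16.4 and 16.02 in prefrontal NeuN+ and 18.4 and 18.2 in prefrontal NeuN-. Of 13 interneuron genes, 6 were lower (Sst, Vip, Npy, Lhx6, Dlx1 and Kcnc2) and 3 higher, among them Maf and Slc32a1. These are 46.15% lower, against 28.3% of all features, and 23.1% higher, against 27.2%. The peptide gene Npy stood at 11.4 and 9.69 scaled FPKM in cerebellar NeuN+ libraries, against 359 and 339 in prefrontal NeuN+. In NeuN-, Npy stood at 49.0 and 41.4 in cerebellar libraries, against 367 and 326 in prefrontal ones. Npy had a log2 change of -4.93 ± 0.11 in NeuN+ and -2.91 ± 0.11 in NeuN-. Slc32a1, the vesicular GABA transporter gene of all GABA neurons, had a log2 change of 1.30 ± 0.08 in NeuN+ and 1.65 ± 0.08 in NeuN- and stayed under 3 scaled FPKM in every library.

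**Figure D4:**
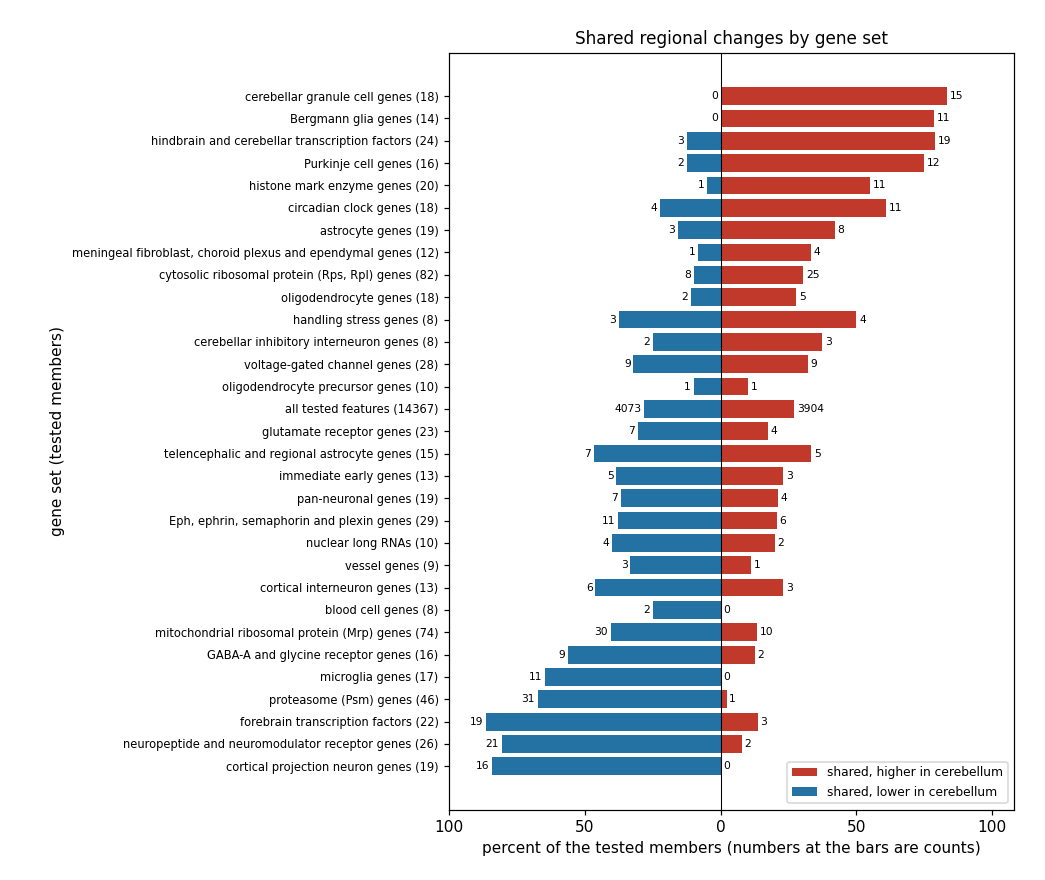
Percent of the tested members of each gene set with a shared change, higher in cerebellum (red, to the right) or lower (blue, to the left), with counts at the bars and tested members in brackets. The row of all tested features (3904 higher, 4073 lower) is the background against which each set is read.

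Of 26 tested neuropeptide and neuromodulator genes, 21 were lower, against 28.3% of all features, and 2 higher. Many passed the filter through the region where they are high. Under 1 scaled FPKM were 17 of the 26 in each cerebellar NeuN+ library and 15 in each cerebellar NeuN- library. In prefrontal libraries 0 were in NeuN+, and 8 and 7 in NeuN-. When 1 FPKM was asked for in all 8 libraries, 6 were lower and 1 higher. Besides Sst, Vip, Tac1, Cck and Npy, the lower genes included those of the peptides Penk, Pdyn, Tac2 and Crh and receptors for serotonin, acetylcholine and opioids. The higher genes were Crhr1, the receptor for corticotropin releasing hormone, at 19.4 and 19.3 scaled FPKM in cerebellar NeuN+ against 6.55 and 6.17 in prefrontal NeuN+ libraries, and 3.25 and 3.97 in NeuN- from cerebellum against 0.748 and 0.473 in NeuN- from prefrontal cortex (log2 change of 1.47 ± 0.11 in NeuN+ and 1.52 ± 0.11 in NeuN-, limma adjusted p = 3.3e-05), and the adenosine receptor gene Adora1 (1.41 ± 0.09 in NeuN+ and 0.33 ± 0.09 in NeuN-), which lost its call with FPKM as deposited. The summed level of the 26 genes was 160.1 and 153 in cerebellar NeuN+ libraries, against 2045 and 1914 in prefrontal NeuN+, and 167 and 162 in NeuN- from cerebellum, against 2514 and 2335 in NeuN- from prefrontal cortex.

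Receptors for GABA changed subunit by subunit. Of 16 GABA-A and glycine receptor genes, 9 were lower in both gates (56.25%, against 28.3% of all features). Gabra6 and Gabrd, the subunits of granule cell extrasynaptic receptors, were higher (12.5%, against 27.2%). When 1 FPKM was asked for in all 8 libraries, 4 genes were lower and 1 higher. Gabrd stood at 116 and 121 scaled FPKM in cerebellar NeuN+ libraries, against 46.9 and 48.7 in prefrontal NeuN+. In NeuN-, Gabrd stood at 38.5 and 41.0 in cerebellar libraries, against 16.5 and 16.2 in prefrontal ones. Gabrd had a log2 change of 1.29 ± 0.05 in NeuN+ and 1.23 ± 0.05 in NeuN- (limma adjusted p = 1.4e-05). Gabra5 stood at 0.0251 and 0 scaled FPKM in cerebellar NeuN+ libraries, against 28.8 and 28.7 in prefrontal NeuN+. In NeuN-, Gabra5 stood at 0.0271 and 0.0221 in cerebellar libraries, against 12.8 and 13.9 in prefrontal ones. Gabra5 had a log2 change of -4.88 ± 0.07 in NeuN+ and -3.80 ± 0.07 in NeuN- (limma adjusted p = 1.4e-05). Gabrg3 was listed at 0 in all 4 cerebellar libraries. The list's sum, which holds the abundant Gabra6 and Gabrd, was higher in cerebellum, at 487 and 498 in cerebellar NeuN+ libraries, against 395 and 401 in prefrontal NeuN+, and 300.5 and 301 in NeuN- from cerebellum, against 288 and 298 in NeuN- from prefrontal cortex.

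Of 23 tested glutamate receptor genes, 4 were higher (17.4%, against 27.2% of all features), 7 lower (30.4%, against 28.3%), and 10 separated the regions in opposite directions in the 2 gates. The metabotropic receptor gene Grm5 had a log2 change of -4.37 ± 0.08 in NeuN+ and -2.62 ± 0.08 in NeuN-, Grm3 -1.67 ± 0.08 in NeuN+ and -2.56 ± 0.08 in NeuN- and Grm7 -4.50 ± 0.09 in NeuN+ and -1.22 ± 0.09 in NeuN-. Voltage-gated channel genes were near the shares of all features (27.2% higher and 28.3% lower), with 9 of 28 higher and 9 lower (32.1% each). Kcnc1, a fast potassium channel gene, stood at 77.0 and 74.5 scaled FPKM in cerebellar NeuN+ libraries, against 14.0 and 13.7 in prefrontal NeuN+. In NeuN-, Kcnc1 stood at 13.01 and 13.9 in cerebellar libraries, against 3.06 and 3.02 in prefrontal ones. Kcnc1 had a log2 change of 2.37 ± 0.05 in NeuN+ and 1.84 ± 0.05 in NeuN- (limma adjusted p = 2.1e-05). Its relative Kcnc2 stood at 0.145 and 0.0456 scaled FPKM in cerebellar NeuN+ libraries, against 8.27 and 7.34 in prefrontal NeuN+. In NeuN-, Kcnc2 stood at 0 and 0.00910 in cerebellar libraries, against 4.58 and 5.10 in prefrontal ones. Kcnc2 had a log2 change of -3.01 ± 0.09 in NeuN+ and -2.54 ± 0.09 in NeuN-. The axonal channel gene Kcna1 was higher, with a log2 change of 1.55 ± 0.05 in NeuN+ and 1.13 ± 0.05 in NeuN-, as was Kcna2, with 1.19 ± 0.08 in NeuN+ and 1.88 ± 0.08 in NeuN-. Of 29 Eph, ephrin, semaphorin and plexin genes, 11 were lower (37.9%, against 28.3% of all features), or 9 with a common sum or quantile normalization, such as the receptor genes Epha7 (-3.19 ± 0.08 in NeuN+ and -2.69 ± 0.08 in NeuN-), Epha4 (-3.10 ± 0.07 in NeuN+ and -2.08 ± 0.07 in NeuN-) and Epha5 (-2.99 ± 0.07 in NeuN+ and -1.79 ± 0.07 in NeuN-). Higher were 6 (20.7%, against 27.2% of all features), including Sema6d (1.06 ± 0.07 in NeuN+ and 1.36 ± 0.07 in NeuN-) and Ephb2 (0.98 ± 0.10 in NeuN+ and 1.43 ± 0.10 in NeuN-).

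Of the glial lists, Bergmann glia genes were mostly higher, against 27.2% of all features, and microglial genes mostly lower. Of 14 Bergmann glia genes, 11 were higher, 0 lower, and Gria1, Gria4 and Fabp7 were not shared. Their median log2 change was 0.79 in NeuN+ and 1.80 in NeuN-. When 1 FPKM was asked for in all 8 libraries, 7 were higher. The list's sum was 355 and 354 in cerebellar NeuN+ libraries, against 178 and 180.0 in prefrontal NeuN+, and 1874 and 1853 in NeuN- from cerebellum, against 750.5 and 766 in NeuN- from prefrontal cortex. Gdf10, a growth factor gene of Bergmann glia, stood at 11.2 and 10.4 scaled FPKM in cerebellar NeuN+ libraries, against 0.770 and 0.976 in prefrontal NeuN+. In NeuN-, Gdf10 stood at 63.5 and 61.8 in cerebellar libraries, against 5.41 and 4.81 in prefrontal ones. Gdf10 had a log2 change of 2.66 ± 0.08 in NeuN+ and 3.38 ± 0.08 in NeuN- (limma adjusted p = 1.7e-05). Vim, the intermediate filament gene, had 1.71 ± 0.09 in NeuN+ and 3.57 ± 0.09 in NeuN-, and the matrix protein gene Itih3 1.81 ± 0.08 in NeuN+ and 1.56 ± 0.08 in NeuN-. Within cerebellum the sum was about 5 times higher in NeuN- than in NeuN+ libraries, and the part of glial RNA in the NeuN+ libraries was not tested.

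Genes common to astrocytes were divided. Of 19, 8 were higher (42.1%, against 27.2% of all features), 3 lower (15.8%, against 28.3%) and 8 not shared. The bicarbonate transporter gene Slc4a4 had a log2 change of 2.23 ± 0.05 in NeuN+ and 1.25 ± 0.05 in NeuN-. Slc1a2, the main glutamate transporter gene of forebrain astrocytes, went the other way, at 6.40 and 6.10 scaled FPKM in cerebellar NeuN+ libraries, against 25.4 and 24.8 in prefrontal NeuN+. In NeuN-, Slc1a2 stood at 23.3 and 23.8 in cerebellar libraries, against 80.2 and 80.0 in prefrontal ones. Slc1a2 had a log2 change of -1.85 ± 0.04 in NeuN+ and -1.72 ± 0.04 in NeuN- (limma adjusted p = 4.5e-06). Of 15 genes listed for astrocytes of one region or another, 7 were lower (46.7%, against 28.3%) and 5 higher (33.3%, against 27.2%). Sparcl1, which encodes a synapse-promoting matrix protein, had a log2 change of -2.25 ± 0.06 in NeuN+ and -1.74 ± 0.06 in NeuN-. Its relative Sparc had 1.02 ± 0.08 in NeuN+ and 0.64 ± 0.08 in NeuN-.

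Microglial genes were lower in both gates in 11 of 17 (64.7%, against 28.3% of all features), and higher in both in 0. The defining markers Cx3cr1, P2ry12 and Tmem119 were among the 6 not shared. Of those 6, 4 separated the regions in opposite directions in the gates. Many of the 17 passed the filter through prefrontal libraries. Under 1 scaled FPKM were 11 and 10 of them in cerebellar NeuN+ libraries, against 6 and 4 in prefrontal NeuN+. In NeuN- it was 5 in each cerebellar library, against 0 in each prefrontal one. When 1 FPKM was asked for in all 8 libraries, 3 were lower in both gates. Aif1, the gene of the calcium-binding protein IBA1, was listed at 0 in cerebellar NeuN+ and stood at 2.29 and 2.35 in cerebellar NeuN-, against 2.64 and 2.56 in prefrontal NeuN+ and 20.7 and 17.7 in prefrontal NeuN-. Csf1r, the growth factor receptor gene of microglia, stood at 0.219 and 0.105 scaled FPKM in cerebellar NeuN+ libraries, against 1.81 and 2.68 in prefrontal NeuN+. In NeuN-, Csf1r stood at 4.24 and 5.42 in cerebellar libraries, against 70.4 and 77.6 in prefrontal ones. Csf1r had a log2 change of -1.47 ± 0.16 in NeuN+ and -3.69 ± 0.16 in NeuN- (limma adjusted p = 0.0023). The signalling adaptor gene Tyrobp had -1.85 ± 0.17 in NeuN+ and -2.56 ± 0.17 in NeuN-. The list's summed level was 28.7 and 31.8 in cerebellar NeuN+ libraries, against 61.3 and 66.7 in prefrontal NeuN+, and 91.8 and 91.9 in NeuN- from cerebellum, against 1064 and 1088 in NeuN- from prefrontal cortex. In NeuN- the regions thus stood more than 10-fold apart, and in NeuN+, where the list is low, about 2-fold.

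The shares of all features for the lists that follow are 27.2% higher and 28.3% lower. Of 18 oligodendrocyte genes, 5 were higher (27.8%), 2 lower (11.1%) and 11 not shared, 7 of them with opposite directions in the gates. Enpp2, which encodes the enzyme autotaxin, was lower, with a log2 change of -3.20 ± 0.05 in NeuN+ and -1.34 ± 0.05 in NeuN-. Cldn11 lost its call without any 1 of the NeuN+ libraries (adjusted p 0.054 to 0.059) and with FPKM as deposited, and Ugt8a without any 1 of the NeuN- libraries (adjusted p of 0.11 in each case) and with quantile normalization; without a NeuN+ library 3 genes were higher, and without a NeuN- library 1 was lower. Of 10 precursor genes, Ptprz1 was higher and Pdgfra lower (10% each), and Ptprz1 lost its call without any 1 of the NeuN- libraries (adjusted p 0.050 to 0.053). Without prefrontal NeuN- replicate 1, 2 precursor genes were lower. Of 9 vessel genes, 3 were lower (33.3%) and 1 higher (11.1%), near the share of all features for the lower ones. The pericyte-linked gene Vtn had a log2 change of -1.13 ± 0.13 in NeuN+ and -0.88 ± 0.13 in NeuN-. Of 12 genes of meningeal fibroblasts, choroid plexus and ependyma, 4 were higher (33.3%, near the share of all features) and 1 lower (8.33%). The choroid plexus gene Ttr stood at 2.07 and 2.04 scaled FPKM in cerebellar NeuN+ libraries, against 0 and 0 in prefrontal NeuN+. In NeuN-, Ttr stood at 5.92 and 5.08 in cerebellar libraries, against 0.419 and 0.938 in prefrontal ones. Most defining markers of endothelium (Cldn5, Flt1, Pecam1) did not pass the filter. Of 8 blood cell genes, 2 were lower (25%, near the share of all features) and 0 higher. Without 1 of the NeuN- libraries other than prefrontal replicate 2, 1 to 2 were higher, as were 3 with a common sum or quantile normalization. The part of these cells in the results was not tested.

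**Figure D5:**
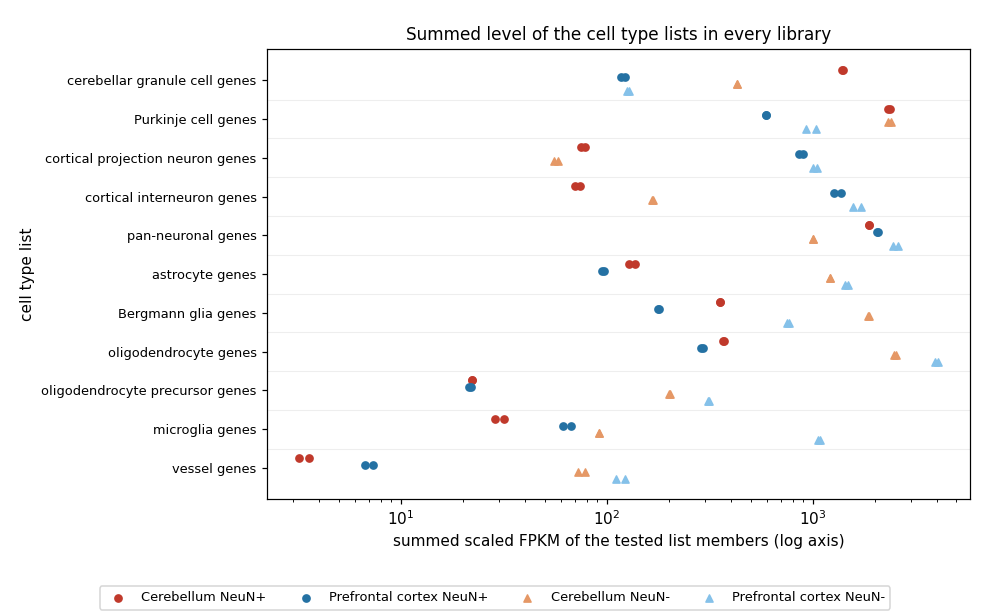
Summed scaled FPKM (log axis) of the tested members of 11 cell type lists in each of the 8 libraries; red and orange points are cerebellar, dark and light blue points prefrontal, circles NeuN+ and triangles NeuN-. Granule, Purkinje and Bergmann glia lists are higher in the cerebellar libraries of both gates, cortical neuron and microglia lists in the prefrontal ones.

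Among families of housekeeping genes, proteasome genes were mostly lower. Of 46 tested proteasome genes, 31 were lower in cerebellum in both gates and 1 higher, against 28.3% and 27.2% of all features, and under the other scalings 26 to 31 were lower and 1 to 2 higher. Their summed level was 3253 and 3205 in cerebellar NeuN+ libraries, against 3929 and 3920.0 in prefrontal NeuN+, and 2816 and 2862 in NeuN- from cerebellum, against 4935 and 4899 in NeuN- from prefrontal cortex. Of 74 mitochondrial ribosomal protein genes, 30 were lower (40.5%, against 28.3% of all features) and 10 higher (13.5%, against 27.2%). The order did not hold under every scaling, since with FPKM rescaled to a common sum 17 were lower and 16 higher, and with quantile normalization 16 and 16. Of 82 cytosolic ribosomal protein genes, 25 were higher (30.5%, against 27.2% of all features) and 8 lower, and 14 to 53 higher with 4 to 9 lower under the other scalings. Of 44 complex I genes, 11 were higher and 6 lower (25% against 27.2% of all features for the higher ones). The count depended on the scaling, with 3 higher and 4 lower as deposited, 20 and 3 with a common sum, and 22 and 4 with quantile normalization. The scalings moved the median log2 change of all features between -0.09 and 0.14, against -0.01 in the scaling used.

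Clock genes were mostly higher. Of 18, 11 were higher in both gates (61.1%, against 27.2% of all features), among them Per1, Per2, Cry1, Cry2, Nr1d1, Nr1d2, Rora, Dbp, Tef and Bhlhe41; Arntl, Npas2, Rorb and Hlf were lower (22.2%, against 28.3%). Rora, a nuclear receptor needed by Purkinje cells, stood at 20.1 and 18.2 scaled FPKM in cerebellar NeuN+ libraries, against 9.35 and 7.75 in prefrontal NeuN+. In NeuN-, Rora stood at 50.6 and 54.0 in cerebellar libraries, against 7.68 and 6.65 in prefrontal ones. Rora had a log2 change of 1.08 ± 0.10 in NeuN+ and 2.71 ± 0.10 in NeuN- (limma adjusted p = 0.0023). Dbp, an output factor of the clock, had 0.64 ± 0.11 in NeuN+ and 1.21 ± 0.11 in NeuN-, Bhlhe41 0.83 ± 0.07 in NeuN+ and 0.58 ± 0.07 in NeuN-, and Arntl, the partner of CLOCK, -0.65 ± 0.08 in NeuN+ and -0.39 ± 0.08 in NeuN-. Hlf, with a log2 change of -0.40 ± 0.07 in NeuN+ and -0.34 ± 0.07 in NeuN-, lost its call with FPKM rescaled to a common sum, under which 12 clock genes were higher and 1 lower; without any 1 of the NeuN+ libraries 2 were lower. Rora overlaps another feature, and Dbp overlaps Sphk2.

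Of 13 immediate early genes, 3 were higher (Fos, Jun and Ier2) and 5 lower (Egr3, Npas4, Dusp6, Btg2 and Bdnf), which is 23.1% and 38.5%, against 27.2% and 28.3% of all features. The phosphatase gene Dusp6 stood at 0.477 and 0.800 scaled FPKM in cerebellar NeuN+ libraries, against 23.4 and 25.7 in prefrontal NeuN+. In NeuN-, Dusp6 stood at 8.19 and 9.65 in cerebellar libraries, against 55.5 and 57.4 in prefrontal ones. Dusp6 had a log2 change of -3.97 ± 0.12 in NeuN+ and -2.54 ± 0.12 in NeuN- (limma adjusted p = 0.00012). Fos stood at 11.96 and 10.2 scaled FPKM in cerebellar NeuN+ libraries, against 7.59 and 6.35 in prefrontal NeuN+. In NeuN-, Fos stood at 4.89 and 4.93 in cerebellar libraries, against 2.08 and 1.75 in prefrontal ones. Fos had a log2 change of 0.60 ± 0.11 in NeuN+ and 1.02 ± 0.11 in NeuN-. Of 8 genes of handling stress, 4 were higher (50%, against 27.2% of all features), among them Ddit3 (1.00 ± 0.08 in NeuN+ and 0.91 ± 0.08 in NeuN-). Lower were 3 (37.5%, against 28.3%), among them the chaperone gene Hspa5. Hspa5 stood at 34.0 and 37.2 scaled FPKM in cerebellar NeuN+ against 133 and 128 in prefrontal NeuN+ libraries, and 29.2 and 26.6 in NeuN- from cerebellum against 131 and 150.4 in NeuN- from prefrontal cortex (-1.85 ± 0.08 in NeuN+ and -2.29 ± 0.08 in NeuN-). Of 20 genes of enzymes that write or erase histone marks, 11 were higher (55%, against 27.2% of all features) and Hdac9 alone was lower, at 0.283 and 0.368 scaled FPKM in cerebellar NeuN+ against 7.08 and 6.64 in prefrontal NeuN+ libraries, and 0.557 and 0.622 in NeuN- from cerebellum against 2.16 and 2.36 in NeuN- from prefrontal cortex (-2.57 ± 0.08 in NeuN+ and -1.03 ± 0.08 in NeuN-). Of the higher ones, 0 reached 2-fold in both gates; examples are Hdac4 (0.92 ± 0.06 in NeuN+ and 1.59 ± 0.06 in NeuN-), Ep300 (0.63 ± 0.08 in NeuN+ and 0.60 ± 0.08 in NeuN-) and Kdm5c (0.98 ± 0.08 in NeuN+ and 0.64 ± 0.08 in NeuN-).

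Among nuclear long RNAs, Neat1, the scaffold of paraspeckles, was higher, at 11.1 and 10.6 scaled FPKM in cerebellar NeuN+ libraries, against 0.802 and 1.17 in prefrontal NeuN+. In NeuN-, Neat1 stood at 317 and 320.3 in cerebellar libraries, against 110.2 and 108.1 in prefrontal ones. Neat1 had a log2 change of 2.58 ± 0.09 in NeuN+ and 1.54 ± 0.09 in NeuN- (limma adjusted p = 0.00025). Kcnq1ot1 was higher as well, with a log2 change of 0.53 ± 0.05 in NeuN+ and 1.44 ± 0.05 in NeuN-. Lower were Pantr1, at 5.21 and 3.49 scaled FPKM in cerebellar NeuN+ against 60.2 and 53.6 in prefrontal NeuN+ libraries, and 20.2 and 20.6 in NeuN- from cerebellum against 142 and 132 in NeuN- from prefrontal cortex (-3.45 ± 0.15 in NeuN+ and -2.69 ± 0.15 in NeuN-), Miat (-5.07 ± 0.07 in NeuN+ and -1.41 ± 0.07 in NeuN-), Dlx6os1 and Rmst. Rmst lost its call without any 1 of the NeuN+ libraries (adjusted p 0.091 to 0.093) and when FPKM were brought to a common sum. Of long noncoding RNAs, 7.42% of the 822 tested were at least 2-fold higher in both gates and 4.99% lower, against 4.77% and 8.40% of 13054 protein-coding features.

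The level of the shared genes within their own region did not follow 1 gate. Of the 701 features at least 2-fold higher in cerebellum, 420 were higher in cerebellar NeuN+ than NeuN- libraries without overlap, and 203 lower. Of the 1159 features at least 2-fold lower in cerebellum, 483 were higher in prefrontal NeuN+ than NeuN-, and 517 lower. Under 1 scaled FPKM in both gates of the other region were 155 of the 701 and 317 of the 1159. Of features spanning 300 kb or more, 13.6% of 456 were at least 2-fold lower and 6.14% higher, against 7.45% and 5.81% of the 4320 features under 10 kb.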

How the data were processed

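Nuclear RNA of NeuN-sorted nuclei was sequenced. The FPKM per feature were deposited by the authors and made, per the submitters' processing notes, with Trim Galore 0.3.7, TopHat2 2.1.1, Bowtie 1.1.1 and Cufflinks on mm9; these do not name the annotation, the Cufflinks version or whether strand was used. Features were joined on identifier and locus, FPKM were scaled by median-of-ratios factors (0.878 to 1.05, from 9109 features), and limma 3.58.1 (R 4.3.3) was fitted to log2(deposited FPKM, scaled, + 1), with a variance trend, two-sided, Benjamini-Hochberg adjusted. This scale understates changes of low genes. The joint fit held region and gate, with 5 residual degrees of freedom; a fit with 1 mean per group gave the change in each gate and the difference between gates. Named were the 12 largest shared changes in each direction, ranked by the smaller gate change with at least 5 scaled FPKM and no predicted or small RNA, up to 3 and 2 members of each list, shared listed factors and Rbfox3; Hbb-b1, Hoxd11 and genes named by position or outcome alone were named after their values were seen. Members and lists were chosen with earlier results of these data known. The fits were tested on simulated data. Alternatives covered pseudocount, filter, scaling, blocks and left-out libraries. Some listed genes are counted in their lists but not reported here by name.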

Additional observations from a re-analysis of the deposited data

Results flagged for a closer look

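The regional change differed in size between the gates for 116 of the 153 named genes (limma test of the difference, adjusted p under 0.05), against 70.1% of all tested features. For 49 of the 116 the difference was at least 1 on the log2 scale, and the values of 47 follow as the NeuN+ change minus the NeuN- change. Among genes higher in cerebellum, a positive value means a larger change in NeuN+. With positive values these were Cbln1 1.78, Gabra6 2.81, Neurod1 1.23, Cbln3 1.81, Mrln 1.22, Lhx1 1.29, Zic1 1.27, En2 1.55, Zic4 1.02, Pax6 3.90, Maf 2.00, Rbfox3 1.34, Otx2 1.77, Grm4 2.88, Adora1 1.09 and Neat1 1.04. With negative values they were Bhlhe22 -1.47, Nr2f1 -1.31, Pax3 -2.62, Irx5 -1.09, Tfap2b -1.82, Skor1 -1.42, Kit -1.65, Vim -1.85 and Rora -1.63.

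Among genes lower in cerebellum, a negative value means a larger fall in NeuN+. With negative values these were Rasl10a -1.53, Mef2c -1.76, Dlx1 -1.28, Tle4 -1.45, Etv5 -1.20, Foxp2 -1.16, Npy -2.02, Enpp2 -1.86, Grm5 -1.75, Grm7 -3.28, Gabra5 -1.07, Epha4 -1.02, Epha5 -1.20, Dusp6 -1.43, Sgk1 -1.70, Miat -3.66, Rmst -1.97 and Hdac9 -1.53. With positive values they were Sall3 1.97, Cck 1.20, Ugt8a 2.19 and Csf1r 2.22. The differences of Gabra6, Mrln, Rasl10a, Dlx1, Lhx1, Irx5, Otx2 depend on the pseudocount, since these genes are listed at 0 in both libraries of at least 1 group. Groups of 2 libraries are too small to test for a library that stands apart.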

How the results depend on the processing

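None of the 153 named genes reversed its direction where it was tested. Changing the pseudocount, filter or blocks, or leaving out a library, could not reverse genes chosen for regions that do not overlap in either gate. The other scalings moved the median log2 change of all features only between -0.09 and 0.14. The smallest joint change of a named gene was -0.37 (Hlf), so the scalings were a weak check of direction too. Stricter filters left some named genes untested: 37 when 5 FPKM was asked for in 2 libraries, and 92 when 1 FPKM was asked for in every library. The balance of shared higher and lower features turned with the scaling. It was 4700 and 3314 with a common sum, and 4445 and 3652 with quantile normalization. With a pseudocount of 0.1, 1208 features were shared and at least 2-fold higher, and with a pseudocount of 5, 195 were higher and 549 lower. With at least 1 FPKM required in all 8 libraries, 2801 were called lower, 2660 were shared and lower, 391 were shared and at least 2-fold higher and 633 lower, and the difference between gates was called for 6453; that filter leaves fewer features to test. Without the gate block, 2451 were called higher and 2701 lower, and 2428 and 2688 were shared. Asking for 2-fold in each gate left 701 and 1159. With 1 library left out, 3567 to 3652 were shared higher and 3789 to 3848 lower, and 3596 to 3682 were called higher and 3826 to 3869 lower. Replicate numbers did not pair the libraries (correlations of deviations from -0.045 to 0.0342); with the replicate block 3584 were shared higher and 3744 lower, and 3616 and 3778 were called. Of 3696 results of the 153 named genes under alternatives, 3541 kept their call and 155 lost it, 51 of the genes when 2-fold was asked for in each gate and 43 without the gate block. Of 1350 list counts, 1190 stayed within 1.5 times. Depth is unknown, so values near 0 have no floor.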
